A study of Mus musculus with 6 samples.

Results

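The transcription factors that hold the haematopoietic stem cell state were followed in stem cells labelled as lacking Irgm1 and in wild-type stem cells. The group comprised 10 genes, Gata2, Tal1, Lmo2, Lyl1, Runx1, Fli1, Erg, Gfi1, Gfi1b and Mecom, chosen by name. These genes and the related lists below were chosen with earlier results of these data known. Their shares are therefore set beside those of all features as a description only. Every probe set (a group of short array probes whose signals are summarised into a single value) that the platform table gives exactly 1 of these symbols was taken, which gave 20 of the 45101 probe sets of the array. The study compared 3 arrays labelled Lrg47_HSC, from mice with the genotype Lrg-47-/- (the older name of Irgm1, an interferon-induced GTPase), with 3 arrays labelled WT_HSC, from wild-type mice. Per the labels, all mice were C57BL/6, 8 to 12 weeks old, kept free of specific pathogens and given no treatment, and the cells came from whole bone marrow. Sorting combined the side population, cells that pump out a DNA dye, with Sca-1, c-kit and lineage staining. The labels leave unstated which part of Irgm1 is missing, how many mice stand behind an array, and whether the arrays of a group came from separate mice, so that p-values measure only the spread between these arrays.

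These factors act largely as a set. Gata2 is a zinc finger protein that binds GATA motifs, and stem cell maintenance is sensitive to its dose. Tal1 and its close relative Lyl1 are basic helix-loop-helix proteins that bind E-boxes with E proteins, and Lmo2 is a LIM domain adaptor without DNA binding of its own that bridges them to GATA factors through Ldb1. Runx1 binds DNA with its partner Cbfb, and Fli1 and Erg belong to the ETS family. Together these proteins occupy many of the same enhancers in blood progenitors, including enhancers of their own genes. Gfi1 and Gfi1b are related zinc finger repressors that recruit the demethylase Kdm1a, and Mecom encodes the zinc finger protein Evi1 and its longer form, which long-term stem cells need. Several of these genes are also active outside stem cells: Gata2 in mast cells and basophils, Gfi1b and Gata2 in megakaryocytes, Fli1, Erg and Tal1 in endothelium.

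The start regions of Gata2 and Runx1 are shown because the results below turn on probe sets of these genes and because each gene has 2 listed starts. Each window runs 5′ to 3′ on the strand of the gene from 250 bases before to 50 bases after a start, as given by RefSeq for assembly GRCm38.p6. Capitals mark motifs on either strand: AGATAA or TGATAA for GATA factors, GGAAG for ETS factors, CAGATG or CAGCTG for Tal1 and Lyl1 with their partners, TGTGGT for Runx1 and AAATC for Gfi1 and Gfi1b. The upstream Gata2 window lies at chr6:88193641-88193940 (plus strand) and the downstream window at chr6:88198414-88198713 (plus strand). The upstream Runx1 window lies at chr16:92826025-92826324 (minus strand) and the downstream window at chr16:92697280-92697579 (minus strand).
Gata2, upstream start: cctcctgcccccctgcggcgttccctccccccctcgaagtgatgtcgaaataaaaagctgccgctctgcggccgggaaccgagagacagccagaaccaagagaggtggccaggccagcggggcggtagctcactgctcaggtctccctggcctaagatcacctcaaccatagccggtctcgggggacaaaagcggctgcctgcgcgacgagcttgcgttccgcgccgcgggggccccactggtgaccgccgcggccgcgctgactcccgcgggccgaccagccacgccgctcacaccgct
Gata2, downstream start: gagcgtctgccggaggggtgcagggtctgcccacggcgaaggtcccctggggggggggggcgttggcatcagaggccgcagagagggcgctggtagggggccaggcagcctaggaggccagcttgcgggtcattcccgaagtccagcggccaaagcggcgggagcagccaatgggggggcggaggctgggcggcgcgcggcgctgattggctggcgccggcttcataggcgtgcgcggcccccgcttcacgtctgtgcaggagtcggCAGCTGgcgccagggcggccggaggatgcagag
Runx1, upstream start: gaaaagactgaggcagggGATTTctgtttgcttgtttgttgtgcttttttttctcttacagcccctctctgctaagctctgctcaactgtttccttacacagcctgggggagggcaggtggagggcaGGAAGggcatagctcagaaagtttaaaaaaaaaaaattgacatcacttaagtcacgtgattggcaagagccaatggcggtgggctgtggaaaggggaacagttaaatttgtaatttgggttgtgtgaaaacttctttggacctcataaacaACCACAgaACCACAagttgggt
Runx1, downstream start: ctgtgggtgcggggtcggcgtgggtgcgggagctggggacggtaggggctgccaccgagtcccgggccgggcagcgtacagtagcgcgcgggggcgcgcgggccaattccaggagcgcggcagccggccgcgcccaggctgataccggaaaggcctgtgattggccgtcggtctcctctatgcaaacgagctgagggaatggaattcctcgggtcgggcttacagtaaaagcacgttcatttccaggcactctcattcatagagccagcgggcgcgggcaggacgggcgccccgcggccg

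The upstream Gata2 window held none of these letters and the downstream window held the E-box CAGCTG once. The upstream Runx1 window, the start from which adult blood cells are known to read the distal form, held 2 copies of the Runx motif, both on the other strand and just after the start, with 1 ETS and 1 Gfi motif, whereas the downstream window held none. In the table of starts, 8 of the 10 genes matched, with 15 windows. Lmo2 and Fli1 had no entry. The Runx motif was found in 1 of the 15 windows and in 16.8% of all 32851 windows of the same length. The ETS letters stood in 7 of 15 windows against 71.4% of all windows, the Gfi letters in 6 against 35.9%, AGATAA in 2 against 11.2%, TGATAA in 2 against 9.05%, CAGATG in 2 against 17.2% and CAGCTG in 1 against 16.3%. In the upstream Mecom window TGATAA and AAATC overlapped. A match is a description of the letters only, and the arrays do not show from which start a transcript began.

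The 6 arrays were of similar scale, with medians between 3.67 and 3.73 on the log2 scale of GCRMA, the authors' method of background correction, normalisation and summary. Irgm1 itself was at 7.68, 8.58 and 7.84 on the Lrg47_HSC arrays and at 8.39, 8.57 and 8.36 on the WT_HSC arrays, and since the missing part is unknown this checks nothing about the genotype. Pearson correlations over all probe sets were 0.991 to 0.995 within groups and 0.987 to 0.992 between them. The 3′ actin control probe set exceeded the 5′ one by 2.86, 2.81 and 3.56 on Lrg47_HSC arrays and by 3.16, 3.16 and 2.57 on WT_HSC arrays. For Gapdh these gaps were 2.57, 2.56 and 2.94 against 2.77, 2.72 and 3.08. Their part in differences between probe sets of the same gene was not tested. The stem cell markers with a single-symbol probe set, 8 of 10 listed, were all measured above the array median, with a mean level of 9.41 to 9.77 on Lrg47_HSC arrays and 9.58 to 9.75 on WT_HSC arrays. That mean covered differences of both signs, with a median of −0.35 and 0 calls: Slamf1 differed by 1.43 (SE 0.39, adjusted p = 0.144), Kit by −0.82 (SE 0.26, 0.195), Fgd5 by −0.57 (SE 0.22, 0.262), Hlf by −0.48 (SE 0.20, 0.300) and Procr by −0.37 (SE 0.12, 0.199). These 5 had an unadjusted p under 0.05, as did 18.5% of all genes tested, in either direction. Of 7 mast cell and basophil markers 5 (Cpa3, Mcpt8, Ms4a2, Fcer1a and Cma1) did not exceed the bacterial control probe sets on any array. The only one tested, Hdc, whose enzyme makes histamine, was at 6.87, 6.87 and 7.40 in Lrg47_HSC and 6.12, 6.41 and 6.22 in WT_HSC (difference 0.79, SE 0.21, adjusted p = 0.136). The mean level of all 7 was 3.14 to 3.18 against 3.00 to 3.06. Among 4 erythroid markers, Klf1, Hba-a1 and Car1 were at that control level on every array. The 5 megakaryocyte markers averaged 5.67 to 5.90 on Lrg47_HSC arrays against 4.99 to 5.51. Among them Pf4, Gp1bb and Itga2b lay wholly higher, as did 12.8% of all genes tested, each by its brightest tested probe set. Gp9 and Ppbp differed by −0.09 and −0.35 with overlapping groups. Gp1bb (4.47, 4.29 and 4.99 against 2.93, 3.06 and 3.44) had an adjusted p of 0.0290 but entered the test only through the Lrg47_HSC arrays, and without the filter 0 of the 5 were called. The 5 endothelial markers averaged 5.09, 4.90 and 5.75 on Lrg47_HSC replicates 1 to 3 against 5.01 to 5.21 in WT_HSC, with Pecam1 at control level throughout. That mean covered differences of both signs. Emcn lay wholly lower (−0.86), as did 12.4% of all genes tested, and Esam differed by −0.02. Cdh5 (2.59, 2.55 and 4.80 against 2.45, 2.49 and 2.55) and Kdr (5.77, 5.23 and 7.14 against 5.42, 5.14 and 5.42) were highest on Lrg47_HSC replicate 3. The 6 T cell markers averaged 4.36, 3.99 and 5.91 on Lrg47_HSC replicates 1 to 3 against 3.83 to 3.99 in WT_HSC, with Zap70 at control level. The 3 B cell markers averaged 4.35 to 4.39 against 4.36 to 4.74, and the 5 granulocyte and monocyte markers 4.93 to 5.2 against 4.80 to 4.93. The part of these markers in the results was not tested.

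None of the stem cell factors changed past the threshold, and of the probe sets whose groups did not overlap, a Gata2 probe set differed most, at −0.83. Testing was limited to probe sets brighter than the median of the array on 3 or more of the 6 arrays. All 10 genes had at least 1 such probe set, 15 of the 20 in all, and limma with Benjamini-Hochberg adjustment over all 22580 tested probe sets called 0 of the 15, against 1.39% of all tested probe sets (150 higher and 163 lower). At an unadjusted p under 0.05 there were 3 of 15, against a background of 16.4%. The Lrg47_HSC arrays lay wholly below the WT_HSC arrays for 3 of the 15, single probe sets of Gata2, Lmo2 and Runx1, where 11.0% of all tested probe sets did so. They lay wholly above for 0 of the 15, against 11.5%. Of the 15 differences 8 were negative and 7 positive, with a median of −0.02 against 0.01 over all tested probe sets. In bulk samples, fewer cells of a type and less RNA per cell cannot be told apart.

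**Figure D1:**
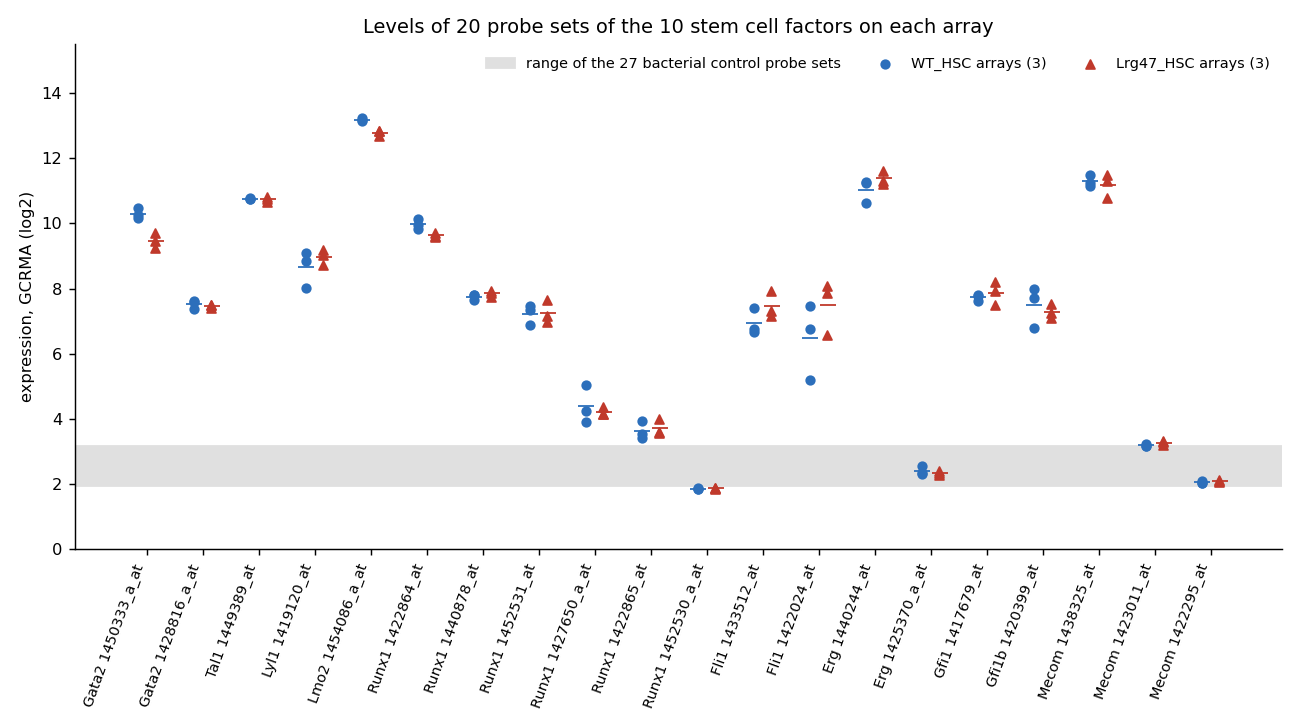
Log2 expression of the 20 probe sets of the 10 factors (horizontal axis) on each array, circles for the 3 WT_HSC and triangles for the 3 Lrg47_HSC arrays, short lines for group means, and a grey band for the 27 bacterial control probe sets (1.96 to 3.18). Triangles lie wholly below circles for Gata2 1450333_a_at, Lmo2 and Runx1 1422864_at, and 1 probe set each of Runx1 and Erg and 2 of Mecom lie in or near the band. Heights of different probe sets cannot be compared, since each has its own probes.

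The precision set what could be seen. Standard errors of the 15 differences ran from 0.10 to 0.61 with a median of 0.21, near the 0.20 of all tested probe sets. For 12 of the 15 the 95% confidence interval of the difference lay within a 2-fold change in either direction. The others were Gata2 1450333_a_at, whose interval reached −1.22, and both Fli1 probe sets, which reached 1.18 and 2.46. The interval of Lyl1 ended just inside, at 1.0.

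**Figure D2:**
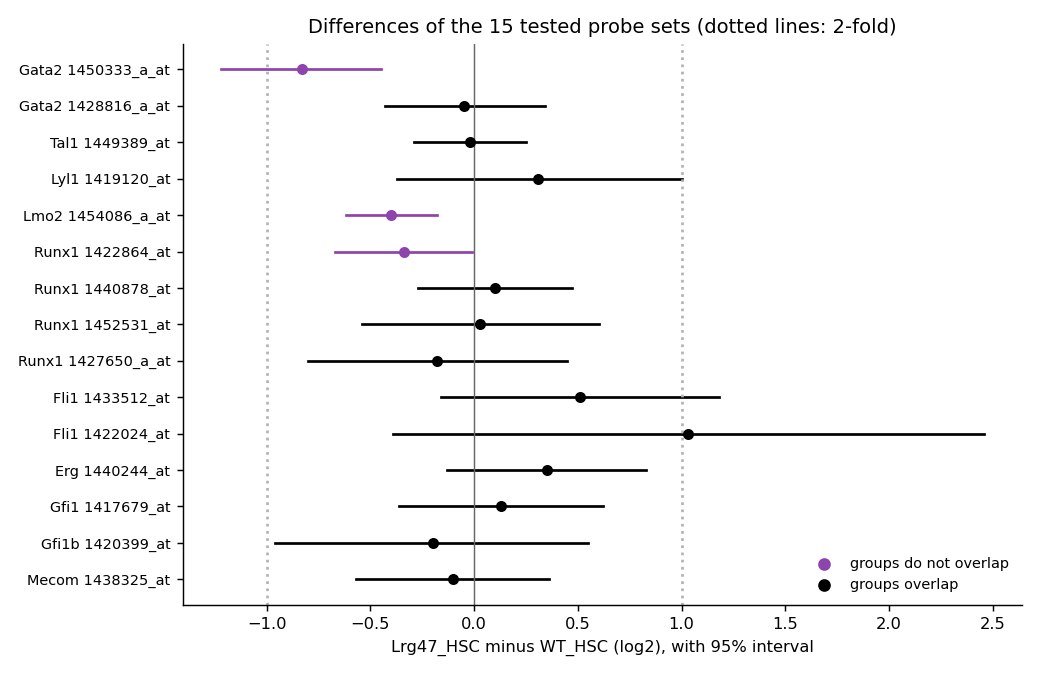
Difference of Lrg47_HSC from WT_HSC (log2) for the 15 tested probe sets, with 95% confidence intervals from limma. Intervals of Gata2 1450333_a_at (−1.22 to −0.45), Lmo2 (−0.62 to −0.18) and Runx1 1422864_at (−0.67 to −0.01) lie below 0, but none of the 15 passed after adjustment over all probe sets.

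Gata2 was read by 2 probe sets, which gave different answers. The brighter set, 1450333_a_at, was at 10.17, 10.26 and 10.46 in WT_HSC and at 9.25, 9.45 and 9.69 in Lrg47_HSC. Every Lrg47_HSC array was thus below every WT_HSC array. The difference was −0.83 (SE 0.17, 95% interval −1.22 to −0.45, limma adjusted p = 0.0664), a 1.78-fold lower mean. It ranked 415 of 22580 by p-value. The second set, 1428816_a_at, was at 7.59, 7.61 and 7.37 in WT_HSC and at 7.40, 7.51 and 7.51 in Lrg47_HSC, a difference of −0.05 (SE 0.16, interval −0.43 to 0.34, adjusted p = 0.917). Its groups overlapped, and its interval does not reach the −0.83 of the other set. Taken within each array, the brighter set exceeded the dimmer one by 2.58, 2.65 and 3.09 in WT_HSC and by 1.85, 1.93 and 2.18 in Lrg47_HSC. This gap did not overlap between groups (difference −0.79, exact two-sided permutation p = 0.10, the smallest that 3 against 3 arrays can give, and 0.15 adjusted over the 3 genes compared this way). By the array's naming, the suffix of both sets marks probes shared by several transcripts of the gene, and the files do not tie either set to a start shown above.

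The call for Gata2 1450333_a_at depended on the setting. Its adjusted p was 0.0430 with a stricter filter at the 70th percentile and 0.0230 with array weights, and it was above 0.05 in the other 13 of 15 alternatives, up to 0.202. The difference itself stayed between −0.95 and −0.73.

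**Figure D3:**
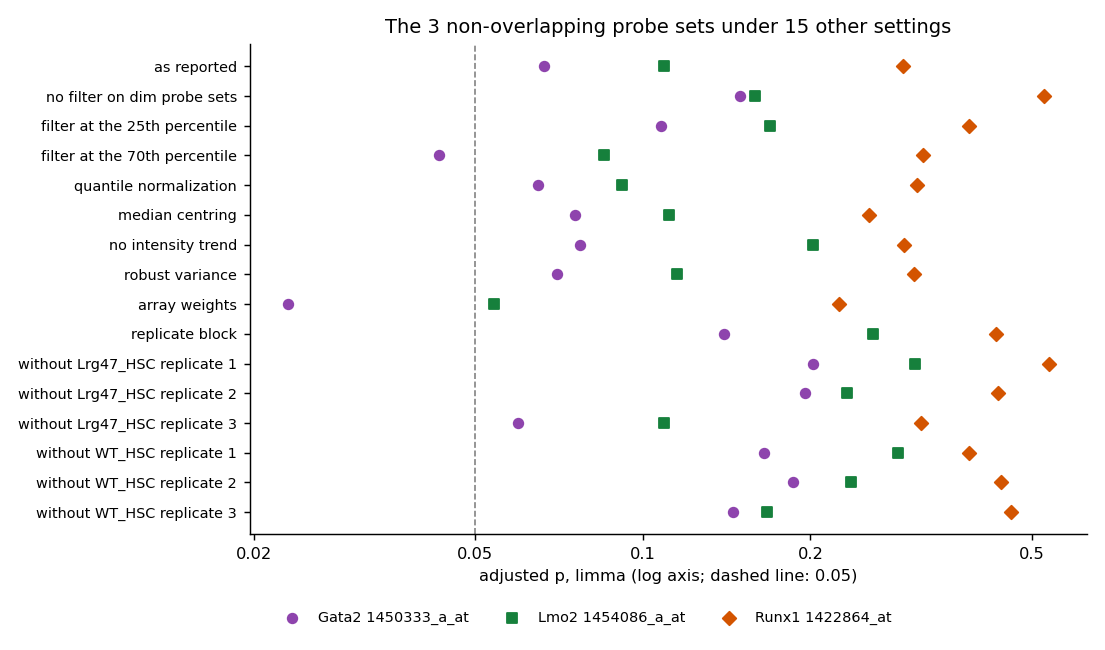
Adjusted p from limma (log axis) for Gata2 1450333_a_at, Lmo2 1454086_a_at and Runx1 1422864_at as reported and under 15 other settings, with a dashed line at 0.05. Gata2 crosses the line at the 70th percentile filter (0.0430) and with array weights (0.0230), and Lmo2 and Runx1 do not cross it in any of the settings shown.

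Lmo2, the adaptor of the complex, had a single probe set, and its arrays were tightly grouped. It was at 13.24, 13.13 and 13.16 in WT_HSC and at 12.67, 12.82 and 12.83 in Lrg47_HSC. All Lrg47_HSC arrays were lower, and the difference of −0.40 (SE 0.10, interval −0.62 to −0.18, adjusted p = 0.109) corresponded to a 1.32-fold lower mean. Over the 15 alternatives it stayed between −0.43 and −0.35, with adjusted p from 0.0539 to 0.308.

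The groups overlapped for both basic helix-loop-helix factors. Tal1 was at 10.75, 10.76 and 10.77 in WT_HSC and 10.75, 10.81 and 10.66 in Lrg47_HSC. Its difference was −0.02 (SE 0.12, interval −0.29 to 0.25, adjusted p = 0.943). Lyl1, which can partly stand in for Tal1 in adult blood, was at 8.86, 9.10 and 8.02 in WT_HSC and 9.02, 8.71 and 9.18 in Lrg47_HSC. WT_HSC replicate 3 was low, the groups overlapped, and the difference was 0.31 (SE 0.29, interval −0.37 to 1.0, adjusted p = 0.645) with that array and −0.01 without it.

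Runx1 had 6 probe sets, of which 4 were tested. The brightest, 1422864_at, was at 9.83, 9.94 and 10.13 in WT_HSC and at 9.57, 9.70 and 9.61 in Lrg47_HSC, without overlap. The difference was −0.34 (SE 0.14, interval −0.67 to −0.01, adjusted p = 0.293), a 1.26-fold lower mean. The next, 1440878_at, was at 7.65, 7.79 and 7.81 in WT_HSC and 7.94, 7.75 and 7.87 in Lrg47_HSC, a difference of 0.10 (SE 0.16, interval −0.27 to 0.47, adjusted p = 0.800). Within arrays the gap between these 2 sets was 2.18, 2.15 and 2.32 in WT_HSC and 1.64, 1.95 and 1.73 in Lrg47_HSC, again without overlap (difference −0.44, exact two-sided permutation p = 0.10, adjusted 0.15). The sets 1452531_at and 1427650_a_at differed by 0.03 (SE 0.25) and −0.18 (SE 0.27), both with overlapping groups, and each changed sign when a single array was left out. Of the 2 untested sets, 1422865_at lay above the array median on 2 arrays and ranged from 3.41 to 3.99, and 1452530_a_at, at 1.84 to 1.89, did not exceed the bacterial controls on any array.

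The ETS factors gave higher means with wide errors. Fli1 1433512_at was at 6.68, 6.75 and 7.41 in WT_HSC and 7.30, 7.92 and 7.16 in Lrg47_HSC, a difference of 0.51 (SE 0.29, interval −0.16 to 1.18, adjusted p = 0.427) that fell to 0.28 without Lrg47_HSC replicate 2. Its other set, 1422024_at, was the most scattered of all members, at 7.45, 5.21 and 6.76 in WT_HSC and 8.08, 7.85 and 6.58 in Lrg47_HSC. WT_HSC replicate 2 was lowest there, the groups overlapped, and the difference was 1.03 (SE 0.61, interval −0.39 to 2.46, adjusted p = 0.453), falling to 0.40 when that array was left out. The gap between the Fli1 sets overlapped between groups (difference −0.52, exact two-sided permutation p = 0.40, adjusted 0.40). Erg 1440244_at was at 11.23, 11.26 and 10.61 in WT_HSC and 11.60, 11.31 and 11.22 in Lrg47_HSC, a difference of 0.35 (SE 0.21, interval −0.13 to 0.83, adjusted p = 0.455), with WT_HSC replicate 3 apart from the rest. The Erg difference fell to 0.13 without that array and to 0.23 without Lrg47_HSC replicate 1. The other Erg set, 1425370_a_at, ranged from 2.28 to 2.57 and stayed at control level on every array.

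**Figure D4:**
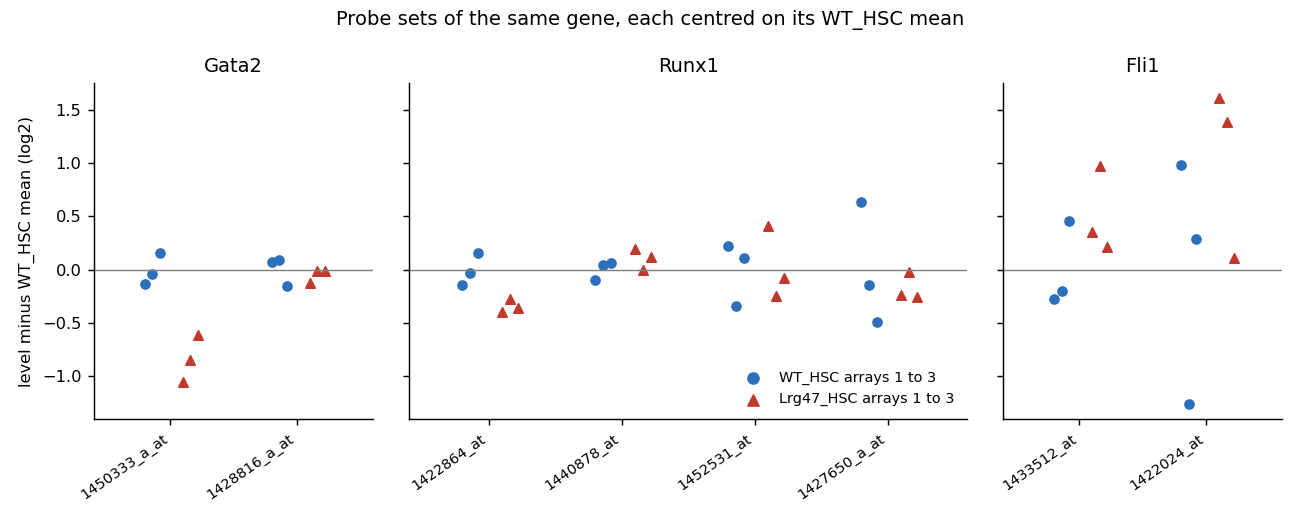
Level of each array minus the WT_HSC mean of the same probe set (log2) for the tested probe sets of Gata2, Runx1 and Fli1, circles for WT_HSC and triangles for Lrg47_HSC, arrays 1 to 3 from left to right within each group. The 3 triangles of Gata2 1450333_a_at lie apart from the circles while those of 1428816_a_at lie among them, and Fli1 1422024_at shows the widest scatter.

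The Gfi repressors and Mecom showed no separation of the groups. Gfi1, which restrains stem cell division, was at 7.62, 7.78 and 7.81 in WT_HSC and 7.92, 7.51 and 8.19 in Lrg47_HSC (difference 0.13, SE 0.21, interval −0.36 to 0.62, adjusted p = 0.810). Gfi1b was at 7.71, 8.00 and 6.78 in WT_HSC and 7.53, 7.11 and 7.25 in Lrg47_HSC (difference −0.20, SE 0.32, interval −0.96 to 0.55, adjusted p = 0.806). The WT_HSC arrays of Gfi1b thus spanned the Lrg47_HSC arrays on both sides. Mecom 1438325_at was at 11.16, 11.47 and 11.25 in WT_HSC and 11.30, 11.49 and 10.78 in Lrg47_HSC (difference −0.10, SE 0.20, interval −0.57 to 0.36, adjusted p = 0.843), with Lrg47_HSC replicate 3 lowest. Its other sets were dim and untested: 1423011_at ranged from 3.16 to 3.32, just above the controls, and 1422295_at from 2.03 to 2.12, at control level.

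Among the 10374 genes tested, each by its brightest tested probe set, those whose pattern over the 6 arrays came nearest to Gata2 1450333_a_at were 2810025M15Rik, Tspan14 and Klhl24. Nearness was the root mean square distance of the values after centring each gene on its own mean, and it was 0.0384, 0.0688 and 0.0732 on the log2 scale. Their differences were −0.90, −0.81 and −0.74, with adjusted p of 0.0723, 0.103 and 0.0911, and the 6 arrays share the group labels, so that any gene lower in Lrg47_HSC by a like amount comes near.

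Transcripts of the proteins that work with these factors showed no called change. Of 19 partners and cofactors 18 were tested and 0 were called, against a background of 1.08% of genes called higher and 0.954% called lower, and 0 had an unadjusted p under 0.05. Their median difference was 0.08 against 0.00 over all genes tested, within a range of −0.36 to 0.69. The groups did not overlap for 4 higher and 1 lower, where 12.8% of genes tested were wholly higher and 12.4% wholly lower. Those with the smallest p were Kdm1a, the demethylase recruited by Gfi1 and Gfi1b (0.32, SE 0.14, adjusted p = 0.311), Ssbp3 (−0.36, SE 0.17, 0.335) and Ssbp2 (0.29, SE 0.15, 0.387), which stabilise Ldb1, and the E protein gene Tcf4 (0.25, SE 0.13, 0.389). Ldb1 itself differed by 0.31 (SE 0.43) and Cbfb, the partner of Runx1, by −0.17 (SE 0.15).

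Among the relatives of the factors, Runx3 rose. Of 13 listed, 11 had a single-symbol probe set and 9 were tested. Runx3, a Runx protein that matters in T and NK cells and also in progenitors, was at 8.49, 8.60 and 9.0 in WT_HSC and 9.88, 9.92 and 9.96 in Lrg47_HSC (difference 1.22, SE 0.17, interval 0.82 to 1.63, adjusted p = 0.0261). The T cell genes Cd3d (4.56, 3.45 and 6.91 against 2.44, 2.49 and 2.46) and Cd3g (4.15, 3.32 and 7.06 against 2.88, 2.92 and 2.89) were also above every WT_HSC array on the 3 Lrg47_HSC arrays, without passing the filter for a test. Cd3e was tested and not called (0.77, SE 0.46, limma adjusted p = 0.464), also without overlap. Cd247 and Lat differed by 0.19 and −0.21 with overlapping groups, and Zap70 was at control level. The part of T cells in the Runx3 value was not tested. The call was lost in 7 of 15 alternatives, with any array but WT_HSC replicate 3 left out (adjusted p of 0.0559 to 0.118), without the filter (0.0658) and with the replicate block (0.103), while the difference stayed between 1.12 and 1.37. No other relative was called: Prdm16, the relative of Mecom, differed by −0.52 (SE 0.23, adjusted p = 0.324), Elf1 by 0.36 (SE 0.19, 0.406) and Gata3 by 0.33 (SE 0.19, 0.425). The median of the 9 was −0.09. Gata1, which takes over from Gata2 as red cells and megakaryocytes form, was too dim to be tested, at 2.29, 2.75 and 2.52 in WT_HSC and 3.41, 3.01 and 3.51 in Lrg47_HSC.

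Among genes described as regulated by these factors in blood or endothelium, Hhex fell. Of 20 listed, 15 were tested, 0 were called higher and 1 lower, against 1.08% and 0.954% of all genes tested, and the median difference was 0.02. Hhex, a homeobox gene with enhancers bound by Tal1, Gata2 and ETS factors, was at 10.47, 10.35 and 10.56 in WT_HSC and 9.46, 9.52 and 9.82 in Lrg47_HSC (difference −0.86, SE 0.15, interval −1.22 to −0.51, adjusted p = 0.0476). The call stood at the threshold and was lost in 12 of 15 alternatives, including each single array left out except Lrg47_HSC replicate 3, with adjusted p up to 0.167 and differences from −0.97 to −0.79. The groups did not overlap for 4 of the 15 on the lower side, against 12.4% of all genes tested, and for 1 on the higher side, against 12.8%. Besides Hhex the lower ones were Emcn (−0.86, SE 0.22, adjusted p = 0.132), Cd34 (−0.59, SE 0.16, 0.135) and the stem cell factor receptor Kit (−0.82, SE 0.26, 0.195, named after its values were seen). The higher one was Itga2b, an integrin of platelets and early progenitors (1.0, SE 0.24, adjusted p = 0.107). Itga2b also belongs to the megakaryocyte markers given above, and Emcn to the endothelial ones.

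None of the other stem cell factors was called. Of 14 listed 13 were tested, and their differences had both signs. The Lrg47_HSC arrays lay wholly lower for 4 of the 13, against 12.4% of all genes tested, and wholly higher for 0, against 12.8%. The same 4 had an unadjusted p under 0.05, as did 18.5% of all genes tested, in either direction. These were Hoxa9 (−0.48, SE 0.10, adjusted p = 0.0774), Bmi1 (−0.50, SE 0.17, 0.219), Zfx (−0.61, SE 0.22, 0.240) and Hlf (−0.48, SE 0.20, 0.300, also a stem cell marker). Hlf was at 10.97, 10.76 and 11.54 in WT_HSC, and its difference fell to −0.25 without WT_HSC replicate 3. Hoxa9 passed in 2 of 15 alternatives, the 70th percentile filter (0.0344) and array weights (0.0428). The median of the 13 was −0.13, within a range of −0.61 to 0.44. Hoxb5 and Hoxb4, not among the 4 with the smallest p, differed by 0.44 (SE 0.21) and 0.26 (SE 0.18) with overlapping groups.

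**Figure D5:**
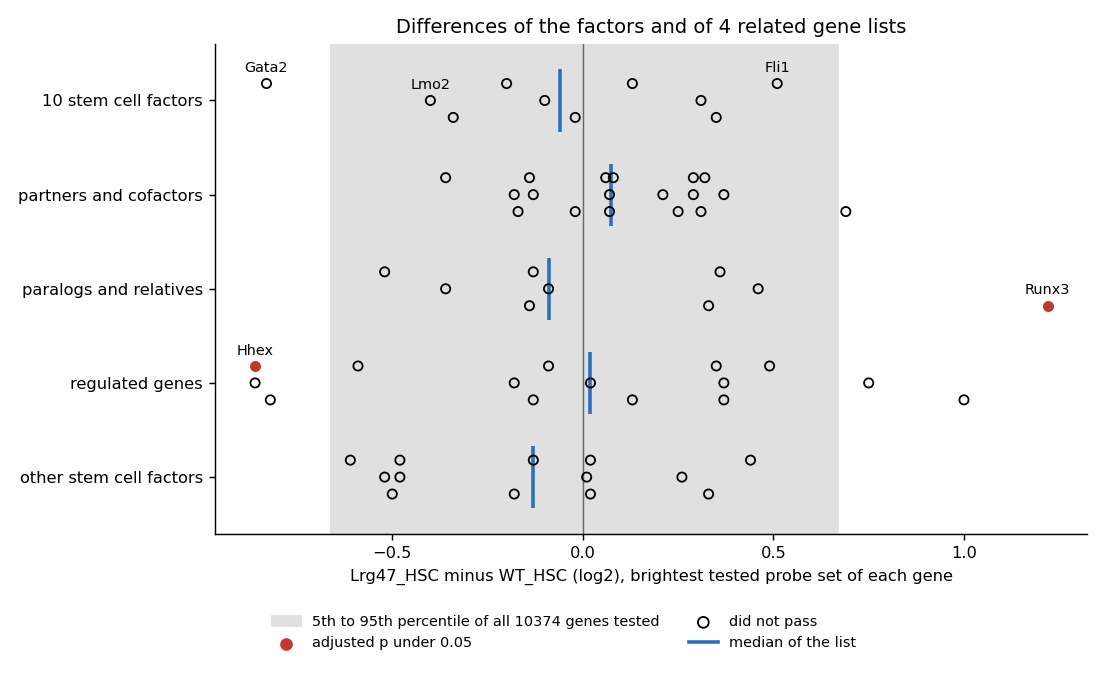
Difference of Lrg47_HSC from WT_HSC (log2) for each tested gene, by its brightest tested probe set, in the 10 factors and 4 related lists, with filled points for adjusted p under 0.05, blue lines for list medians and a grey band for the 5th to 95th percentile of all 10374 genes tested (−0.66 to 0.67). Runx3 and Hhex are the only filled points, and Gata2 is the only one of the 10 factors outside the band.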

How the data were processed

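RNA from sorted stem cells was amplified in 2 rounds, labelled and hybridised to 1 Affymetrix array per sample, per the labels' protocols. The authors deposited GCRMA values on a log2 scale, 1 per probe set and array. GCRMA is named in the submitters' processing notes. Its version is not given in the sources used here, nor are its options. It compresses low values and has already brought the arrays to a common scale, so that a global shift could not be seen, and only 3 arrays per group limit the precision.

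The values were used as deposited. Probe sets were named through the platform table when it gave exactly 1 symbol (34958 of 45101, with 932 given several and 9211 none). Differences (Lrg47_HSC minus WT_HSC) were fitted with limma 3.58.1 in R 4.3.3 (lmFit, eBayes with intensity trend), after a check on simulated data, on the 22580 probe sets above the array median on at least 3 of 6 arrays and not Affymetrix controls. Calls are at an adjusted p under 0.05 (Benjamini-Hochberg). Related genes were read by the brightest tested probe set, and up to 4 per list with the smallest p are named. Ldb1, Cbfb, Gata1, Ets1, Kit, Hoxb5 and Hoxb4 are named outside this rule. Cell type markers were not limited to 4. The gaps between probe sets of a gene were compared by exact permutation of arrays. The members and lists were chosen with earlier results of these data known. Alternatives covered the filter, normalisation, variance model, array weights, a replicate block and each array left out.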

Additional observations from a re-analysis of the deposited data

How the results depend on the processing

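The counts over all probe sets, 150 higher and 163 lower, moved with the filter, to 49 and 54 without it and 62 and 64 at the 25th percentile, and with array weights, to 401 and 463. Leaving out 1 array gave 17 to 138 higher and 28 to 129 lower. Same-numbered arrays did not deviate together (correlations of −0.11, −0.02 and −0.28), so the replicate block, which gave 27 and 41, was not taken as a pairing, and no call among the 10 factors changed with it. The 0 calls among them became 1, Gata2 1450333_a_at, with the 70th percentile filter and with array weights, and stayed at 0 to 0 with any 1 array left out. Probe sets whose groups did not overlap numbered 5098, 3388 at the 70th percentile and 6555 to 9257 with 1 array left out, since fewer arrays overlap less often. Small differences changed sign with 1 array left out, over ranges of −0.06 to 0.02 (Tal1), −0.01 to 0.53 (Lyl1), −0.42 to 0.14 (Runx1 1427650_a_at), −0.16 to 0.17 (Runx1 1452531_at), −0.03 to 0.31 (Gfi1), −0.56 to 0.05 (Gfi1b) and −0.25 to 0.10 (Mecom). Tal1 was 0.01 with array weights and 0.02 without Lrg47_HSC replicate 3, which also gave −0.03 for Gfi1 and 0.10 for Mecom. Runx1 1452531_at was −0.16 without Lrg47_HSC replicate 1 and −0.14 without WT_HSC replicate 2, Runx1 1427650_a_at 0.14 without WT_HSC replicate 1, Gfi1b 0.05 without WT_HSC replicate 2 and Lyl1 −0.01 without WT_HSC replicate 3. The cause was not tested. Quantile normalisation and median centring moved the median of all tested probe sets from 0.01 to 0.01 and −0.01. Low signal kept 5 of the 20 probe sets out of the tests.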
